A study of Arabidopsis thaliana with 36 samples.

Results

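The 5 ethylene receptor genes of Arabidopsis thaliana and RTE1, a gene that acts on 1 of those receptors, were followed through 36 mRNA-seq libraries of whole seedlings. The members were picked by gene code. They are ETR1 (AT1G66340), ERS1 (AT2G40940), ETR2 (AT3G23150), ERS2 (AT1G04310), EIN4 (AT3G04580) and RTE1 (AT2G26070), 6 of the 33619 rows of the deposited table. All 6 had a value in every library and passed the filter on low values in each experiment.

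Every seedling was 4 days old and was grown in liquid medium under a 12 h light and 12 h dark cycle, and each of the 12 groups held 3 libraries that the labels number as replicates. For the ethylene comparisons, the Col-0 wild type was kept on 0.5% glucose and exposed for 2 h or 4 h to 10 µM ACC, the compound that plants convert to ethylene, or to mock. For the glucose-TOR comparisons, Col-0 seedlings and seedlings labelled tor, an inducible mutant of the TOR kinase whose inducer is not given in the sources used here, were grown without glucose and then given 15 mM glucose or none for 2 h. The glucose-HXK1 libraries come from seedlings handled likewise, either wild-type Ler or gin2, a mutant of the hexokinase glucose sensor HXK1 in the Ler background. The design asks how far ethylene-regulated transcripts respond to glucose, and whether that response differs in seedlings with altered TOR or HXK1. Whether the replicates came from separate cultures is not stated beyond their labels, so the p-values measure the spread between these libraries.

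Ethylene receptors sit in the endoplasmic reticulum membrane and are negative regulators: without ethylene they keep the kinase CTR1 active, CTR1 restrains EIN2, and the transcription factors EIN3 and EIL1 are degraded. Binding of ethylene switches the receptors off, EIN2 is released, and EIN3 and EIL1 accumulate and activate target genes. ETR1 and ERS1 form subfamily 1, which has a conserved histidine kinase domain, while ETR2, ERS2 and EIN4 form subfamily 2, whose kinase domains lack residues needed for histidine kinase activity. ERS1 and ERS2 also lack the receiver domain that the other receptors carry. RTE1 is a membrane protein that promotes signalling by ETR1. Some of these genes are known as ethylene-induced genes, so new receptor is made while the hormone is present.

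The 250 bases upstream of the annotated start are shown for the 3 members whose transcripts moved most and for ETR1, which moved little with ACC. They come from RefSeq TAIR10.1 and are read 5′ to 3′ on the gene's own strand, with capitals marking ATGTA, the core of sites bound by EIN3, or its reverse complement TACAT. The stretches lie at chr1:1157814-1158063 on the minus strand for ERS2, chr3:8254309-8254558 on the plus strand for ETR2, chr2:11107189-11107438 on the minus strand for RTE1 and chr1:24733912-24734161 on the plus strand for ETR1.
ERS2: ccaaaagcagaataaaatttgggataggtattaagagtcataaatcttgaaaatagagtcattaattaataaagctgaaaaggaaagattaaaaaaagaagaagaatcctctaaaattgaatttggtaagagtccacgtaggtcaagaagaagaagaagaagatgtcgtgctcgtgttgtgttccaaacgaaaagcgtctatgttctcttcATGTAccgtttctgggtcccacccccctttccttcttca
ETR2: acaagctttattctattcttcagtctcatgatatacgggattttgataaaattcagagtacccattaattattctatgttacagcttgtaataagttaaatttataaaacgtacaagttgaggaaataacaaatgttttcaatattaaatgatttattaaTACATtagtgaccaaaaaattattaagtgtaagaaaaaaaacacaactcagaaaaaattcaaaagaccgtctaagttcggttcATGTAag
RTE1: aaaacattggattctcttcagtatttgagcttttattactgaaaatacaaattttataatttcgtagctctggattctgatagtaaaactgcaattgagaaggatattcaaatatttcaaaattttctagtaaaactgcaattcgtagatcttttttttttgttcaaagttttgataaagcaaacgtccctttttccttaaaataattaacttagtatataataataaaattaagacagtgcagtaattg
ETR1: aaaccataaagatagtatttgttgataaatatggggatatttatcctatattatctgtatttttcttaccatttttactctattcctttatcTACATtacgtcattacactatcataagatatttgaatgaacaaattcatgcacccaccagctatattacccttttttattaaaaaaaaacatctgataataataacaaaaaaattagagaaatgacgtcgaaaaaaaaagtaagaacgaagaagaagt

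The letters ATGTA, searched on both strands, stood 39 to 35 bases before the start of ERS2. In ETR2 they stood 90 to 86 bases before the start on the reverse strand and again 7 to 3 bases before it on the gene's strand. ETR1 held 1 copy on the reverse strand, 158 to 154 bases before its start, and the windows of RTE1, ERS1 and EIN4 held none. So 3 of the 6 members had the pentamer within 250 bases, against 52.3% of 18950 promoters of the same length, and the longer form ATGTANCT was in 0 of 6 against 3.59%. Those 18950 promoters belong to protein-coding genes that passed the filter on low values in the ethylene experiment. In windows of 1000 bases, 5 of 6 held ATGTA against 93.7% of the promoters of those genes, RTE1 being the exception, and again 0 of 6 held ATGTANCT against 15.7%. These are matches of letters and do not show binding; the presence of the pentamer did not separate the genes that moved most from ETR1.

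The annotated genes span chr1:24734162-24737756 on the plus strand for ETR1, chr2:17084321-17087326 on the minus strand for ERS1 and chr3:8254559-8257888 on the plus strand for ETR2. ERS2 spans chr1:1154740-1157813, EIN4 chr3:1235209-1238630 and RTE1 chr2:11105605-11107188, all on the minus strand. ETR1 overlaps a same-strand neighbour, AT1G66345, and ERS1 an opposite-strand neighbour, AT2G40935, at their 3′ ends. The strand setting of the counting is not given in the sources used here, so the ETR1 and ERS1 values are uncertain to that extent.

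Reads on listed genes, in M (1e+06), ranged per library from 16.4 to 21.5 for ethylene, from 13.3 to 21.9 for glucose-TOR and from 5.65 to 13.6 for glucose-HXK1. Between 117 reads (RTE1) and 5717 reads (ERS1) stood behind a member in a library. In the glucose-HXK1 experiment the listed genes fall short of the total of RPM (reads scaled to a common library total). The missing part was 26.9% to 54.3% for Ler and 13.1% to 18.1% for gin2, and its source is not given in the sources used here. Replicate 3 of both Ler groups is the extreme, at 54.3% and 54.1%, and RPM values of listed genes are low there. TOR RPM was higher, not lower, in the libraries labelled tor, at 223.4 ± 0.597 (SD, n = 3) against 114.8 ± 5.17 in Col-0 without glucose, and at 178.4 ± 8.52 against 96.1 ± 0.811 with glucose. What the higher TOR RPM says about the function of that gene was not tested, and the group name below is that of the label. HXK1 RPM was lower in gin2, at 14.4 ± 0.924 against 34.0 ± 10.6 in Ler without glucose. All 5 shoot markers were above 0 in the Col-0 and tor libraries, and so were the root markers other than IRT1, an iron transporter, which was at 0 in all 3 libraries of tor with glucose and in 2 of 3 of tor without it.

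Per kilobase of annotated exon, ERS1 was the most abundant member in all 12 groups. In mock-treated Col-0 seedlings at 2 h it stood at 56.0 ± 0.518 RPM per kb (SD, n = 3), against 12.0 ± 0.748 for ETR1 and 10.8 ± 0.723 for EIN4. RTE1 followed at 8.76 ± 0.540, ETR2 at 7.52 ± 0.306 and ERS2, the lowest, at 4.49 ± 0.241 RPM per kb. The libraries of ETR1 and EIN4 overlapped, and all other neighbours in this order were apart. ERS1 alone made up 61.7% ± 0.314 of the summed receptor level in that group.

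The order below ERS1 differed between groups. With ACC for 2 h it was ETR2, RTE1, ERS2, ETR1 and EIN4, with no overlap between neighbours, so that ETR2 and ERS2, the lowest in the mock group, were above ETR1 and EIN4. In Col-0 given glucose, RTE1 was the lowest member, at 4.59 ± 0.175 RPM per kb. In the libraries labelled tor without glucose, ERS2 stood at 29.0 ± 5.08 and overlapped ETR1 at 28.3 ± 2.90, while EIN4 was lowest at 7.89 ± 0.318 RPM per kb.

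**Figure D1:**
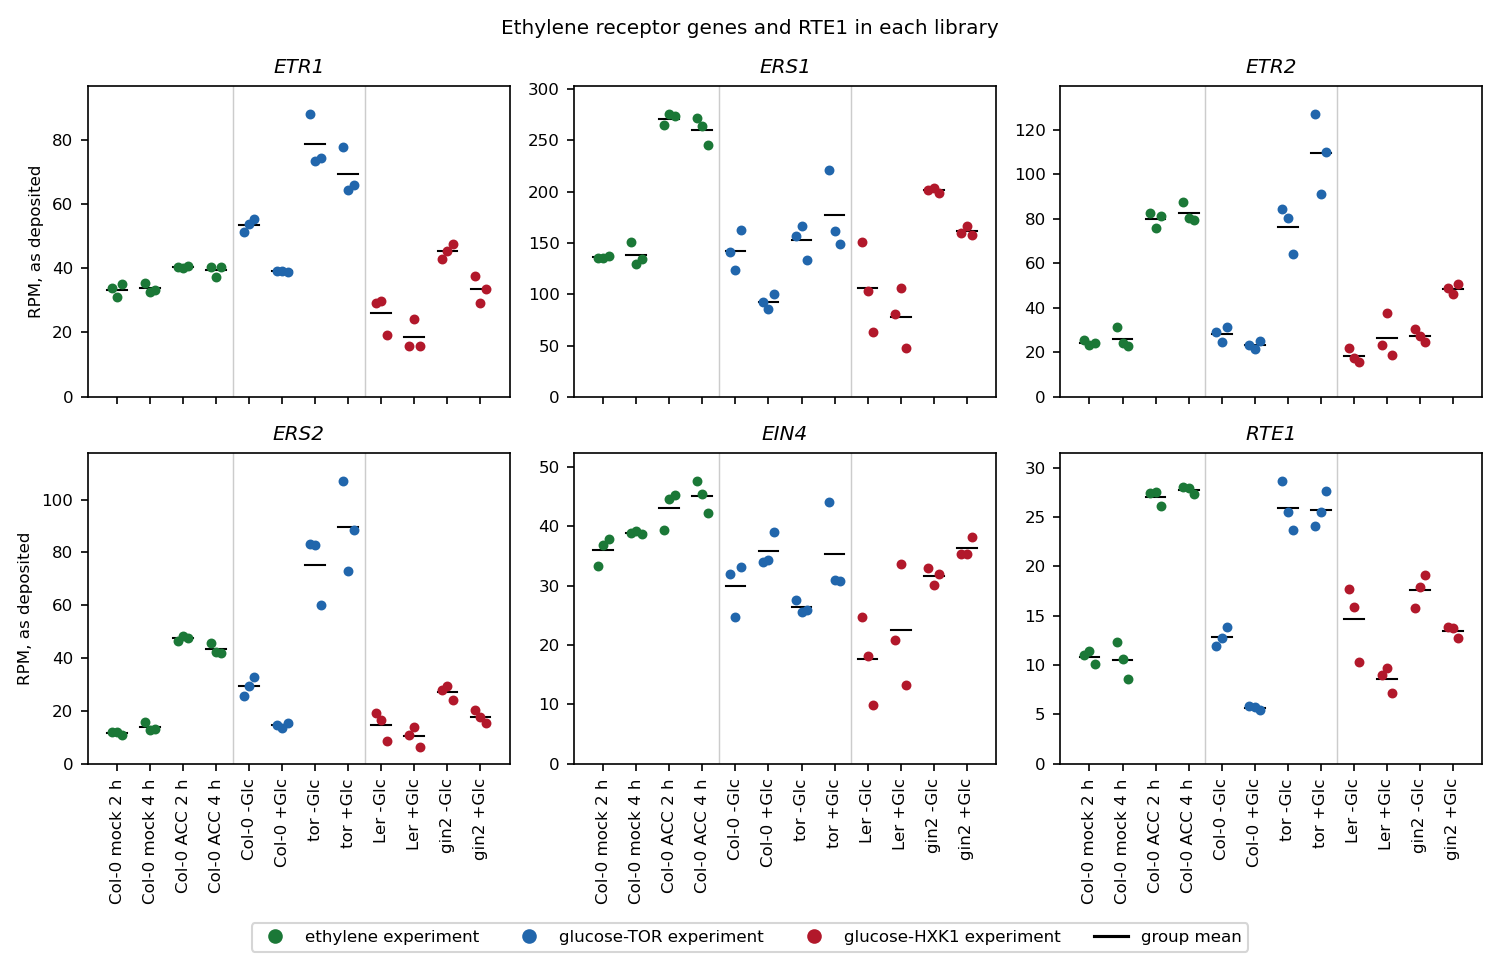
RPM of each member (vertical axis, 1 panel per gene, each with its own scale) in the 36 libraries, grouped along the horizontal axis by treatment and genotype; points are libraries and lines are group means. All 6 members stand higher in all ACC libraries than in all mock libraries, ETR1 and EIN4 by narrow gaps, and ETR2 reaches its highest value, 126.9, in a library labelled tor with glucose.

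ACC raised the transcripts of all 6 members at 2 h, by very different amounts. ERS2 and ETR2 of subfamily 2 rose most, RTE1 and ERS1 followed, and ETR1 and EIN4 rose by at most 0.27 on the log2 scale. Across all genes tested, 9.25% were called at 2 h and 5.47% were called higher. Calls are by limma on log2(RPM + 1), with a Benjamini-Hochberg adjusted p below 0.05 over all genes of an experiment, two-sided.

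ERS2 RPM was 11.9, 12.1 and 10.9 in the mock libraries at 2 h and 46.5, 48.2 and 47.6 with ACC. The groups are far apart, with a log2 change of 1.94 ± 0.08 (SE, n = 3 per group, limma adjusted p = 3.35e-08). ETR2 RPM was 25.4, 23.4 and 24.2 with mock and 82.6, 76.0 and 81.3 with ACC. The lowest ACC library was thus above the highest mock library, and the log2 change was 1.68 ± 0.09 (limma adjusted p = 3.62e-07).

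RTE1 RPM was 11.0, 11.4 and 10.1 with mock and 27.4, 27.5 and 26.1 with ACC at 2 h. The groups did not overlap and the log2 change was 1.25 ± 0.10 (limma adjusted p = 3e-06). ERS1, the most abundant receptor transcript, had 135.7, 135.0 and 137.5 RPM with mock and 264.8, 275.6 and 273.7 with ACC. All 3 ACC libraries were close to 2-fold above all 3 mock libraries, a log2 change of 0.99 ± 0.06 (limma adjusted p = 4.88e-07).

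ETR1 and EIN4 changed least. ETR1 RPM was 33.7, 31.0 and 35.0 with mock and 40.2, 40.2 and 40.6 with ACC, a log2 change of 0.27 ± 0.06 (limma adjusted p = 0.0101). EIN4 RPM was 33.2, 36.9 and 37.8 with mock and 39.4, 44.6 and 45.3 with ACC, a log2 change of 0.25 ± 0.07 (limma adjusted p = 0.0361). The libraries did not overlap for either gene, but the gap for EIN4 was narrow: its call ended in 10 of 19 alternatives, among them DESeq2 on recovered reads (adjusted p = 0.0524) and the fit to the groups compared alone (limma adjusted p = 0.129). ETR1 lost its call in that last fit only (limma adjusted p = 0.0506).

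At 4 h, 5 of the 6 members were called higher, against 19.4% of all genes called and 10.5% called higher. ETR2 rose by 1.64 ± 0.09 on the log2 scale, ERS2 by 1.58 ± 0.08, RTE1 by 1.33 ± 0.10 and ERS1 by 0.91 ± 0.06, with limma adjusted p-values from 1.66e-07 to 1.51e-06. ETR1 rose by 0.22 ± 0.06 (limma adjusted p = 0.024), a call that ended under DESeq2 (adjusted p = 0.0991), under median-of-ratios scaling (limma adjusted p = 0.0516) and without any of 4 single libraries, replicates 2 and 3 of mock and 1 and 3 of ACC at 4 h (limma adjusted p = 0.0767 to 0.0895). EIN4 had 38.8, 39.2 and 38.7 RPM with mock and 47.6, 45.5 and 42.3 with ACC. Its libraries did not overlap, but the log2 difference of 0.21 ± 0.07 missed the threshold (limma adjusted p = 0.054). EIN4 was called at 4 h in 5 of 19 alternatives: the fit to the groups compared alone (limma adjusted p = 0.0302) and without replicate 1 of mock at 2 h, replicate 1 or 3 of ACC at 2 h, or replicate 3 of ACC at 4 h (limma adjusted p = 0.0393 to 0.0457).

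The ACC effect at 4 h was called different from that at 2 h for 0 of the 6 members, where 0.036% of all genes were called. By limma, 1 member, ERS2, was below an unadjusted p of 0.05, with a difference of -0.36 ± 0.11 in log2 (adjusted p = 0.513), and edgeR and DESeq2 each called 0. The mock groups at 4 h and 2 h differed for 0 of 6 members, against 0.0566% of all genes. ERS2 was again the 1 member below an unadjusted p of 0.05, at 0.23 ± 0.08 (limma adjusted p = 0.549), and edgeR and DESeq2 called 0. Shoot markers were not called at 2 h with ACC (0 of 5) and 1 of 5 root markers, EXPA7 of root hair cells, was higher. At 4 h, 2 of 5 shoot markers were lower, while 1 of 5 root markers was higher and 1 lower. The part of these markers in the receptor results was not tested.

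**Figure D2:**
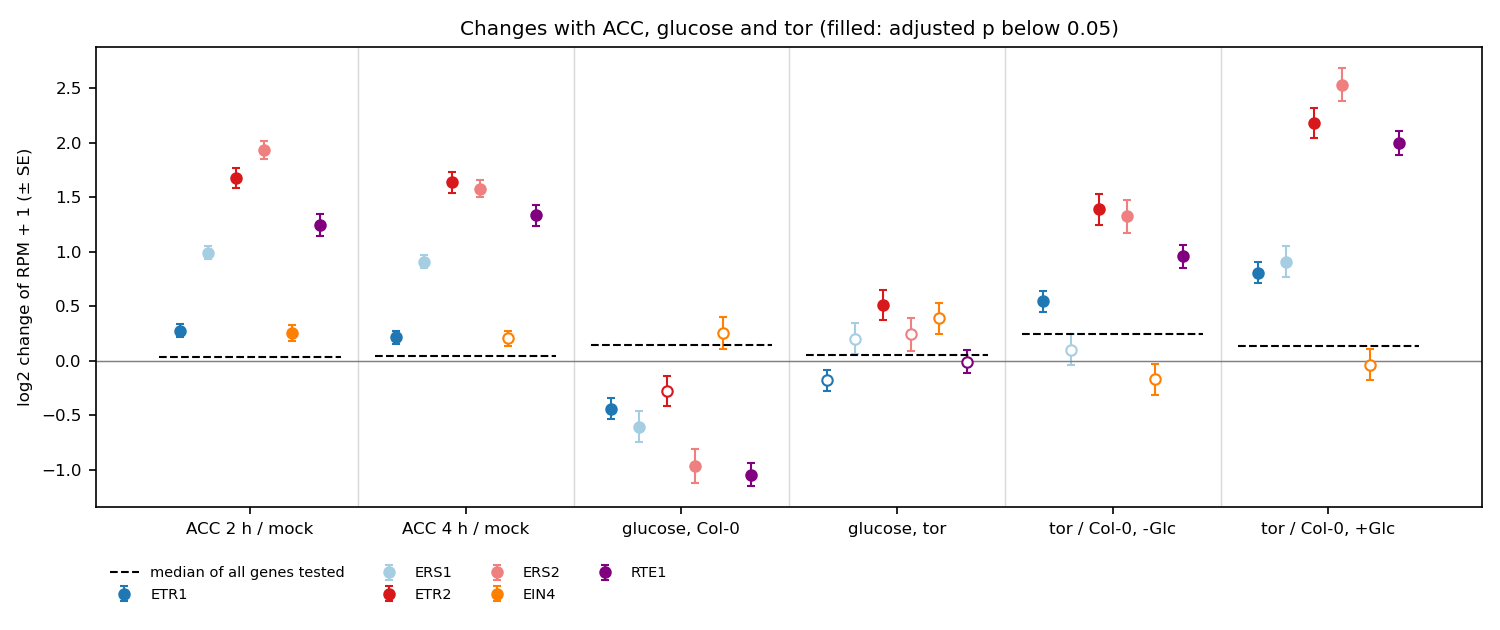
Log2 change of log2(RPM + 1) with its SE for each member in 6 comparisons: ACC at 2 h and 4 h, glucose in Col-0 and in tor, and tor against Col-0 without and with glucose. Filled points passed an adjusted p of 0.05 and dashed lines mark the median of all genes tested; with ACC the members range from 0.25 (EIN4) to 1.94 (ERS2) at 2 h.

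Glucose given to starved Col-0 seedlings lowered 4 of the 6 members, where 56.3% of all genes were called and 20.6% were called lower. RTE1 fell most, followed by ERS2, ERS1 and ETR1, while ETR2 and EIN4 missed the threshold. The median change of all genes was 0.14 in log2 on this scale, and under median-of-ratios scaling the same 4 members were called lower together with ETR2, against 30.4% of all genes called lower.

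RTE1 RPM was 12.0, 12.7 and 13.8 without glucose and 5.85, 5.75 and 5.43 with it. The groups lie about 2-fold apart and each is tight, with a log2 change of -1.05 ± 0.11 (limma adjusted p = 2.74e-06). ERS2 RPM was 25.6, 29.4 and 32.9 without glucose and 14.5, 13.5 and 15.3 with it, a log2 change of -0.97 ± 0.15 (limma adjusted p = 0.000139). The groups of ERS2 did not overlap.

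ERS1 RPM was 141.1, 123.6 and 162.3 without glucose and 92.6, 85.2 and 100.6 with it, a log2 change of -0.61 ± 0.15 (limma adjusted p = 0.00306). ETR1 RPM was 51.1, 53.7 and 55.3 without glucose and 39.1, 39.1 and 38.7 with it, a log2 change of -0.44 ± 0.09 (limma adjusted p = 0.00143). Neither gene's groups overlapped.

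The remaining pair did not pass the test. ETR2 RPM was 29.0, 24.7 and 31.5 without glucose and 23.2, 21.3 and 24.9 with it, overlapping groups with a log2 difference of -0.28 ± 0.14 (limma adjusted p = 0.103). Other treatments of the same data called ETR2 lower, with an adjusted p of 0.00373 under median-of-ratios scaling in limma, 0.00306 in edgeR, 0.000963 in DESeq2 and 0.0486 in the limma fit to these groups alone. EIN4 RPM was 32.0, 24.7 and 33.2 without glucose and 33.9, 34.3 and 39.0 with it, a log2 difference of 0.26 ± 0.14 (limma adjusted p = 0.15). EIN4 was thus the member with the higher mean in glucose; its groups did not overlap, but the difference missed the threshold.

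In Col-0, 4 of 5 root markers rose with glucose, and 2 of 5 shoot markers fell and 1 rose. The summed level of the shoot markers was 27164 to 35681 RPM without glucose and 22691 to 25806 with it. The part of these shifts in the receptor results was not tested. In whole seedlings, fewer cells of a type and less RNA per cell cannot be told apart.

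In the libraries labelled tor, glucose left a different pattern: 1 of the 6 members was called, ETR2, and it rose. Of all genes, 34.7% were called there and 19.9% were called higher. ETR2 RPM was 84.2, 80.2 and 64.0 without glucose and 126.9, 90.9 and 110.1 with it. All glucose libraries were above all libraries without glucose, with a log2 change of 0.51 ± 0.14 (limma adjusted p = 0.0118); without replicate 3 of tor without glucose the call was lost (limma adjusted p = 0.0554).

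RTE1 RPM was 28.6, 25.5 and 23.7 without glucose and 24.1, 25.5 and 27.6 with it, overlapping groups with a log2 difference of -0.01 ± 0.11 (limma adjusted p = 0.955). ERS2 ranged from 60.2 to 83.1 RPM without glucose and from 72.9 to 107.0 with it, a log2 difference of 0.24 ± 0.15 (limma adjusted p = 0.252). These were the members that glucose lowered most in Col-0. ERS1 differed by 0.20 ± 0.15 (limma adjusted p = 0.313) and ETR1 by -0.18 ± 0.09 (limma adjusted p = 0.163). ETR1 was called lower under median-of-ratios scaling (-0.25, limma adjusted p = 0.0472), by DESeq2 (-0.26, adjusted p = 0.0345) and without replicate 1 of tor with glucose (-0.26, limma adjusted p = 0.0318). EIN4 RPM was 27.5, 25.6 and 25.8 without glucose and 44.1, 30.9 and 30.7 with it, a log2 difference of 0.39 ± 0.14 that narrowly missed the threshold (limma adjusted p = 0.0518). EIN4 was called higher by edgeR (adjusted p = 0.0143), by DESeq2 (adjusted p = 0.0104) and in limma under median-of-ratios scaling (adjusted p = 0.0188). Among markers in tor, 1 of 5 shoot markers was lower with glucose and 1 of 5 root markers was higher. Their part in the receptor results was not tested.

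The difference between the glucose effects of the 2 genotypes was itself tested, and it was called for 4 of the 6 members, all in the same direction, against 17.4% of all genes called and 6.21% called higher. Higher here means that the log2 effect of glucose was more positive in tor than in Col-0. It was 1.21 ± 0.22 for ERS2 (limma adjusted p = 0.00296), 1.04 ± 0.15 for RTE1 (limma adjusted p = 0.000885), 0.81 ± 0.21 for ERS1 (limma adjusted p = 0.0175) and 0.79 ± 0.20 for ETR2 (limma adjusted p = 0.0155). ETR1 at 0.26 ± 0.13 (limma adjusted p = 0.205) and EIN4 at 0.13 ± 0.20 (limma adjusted p = 0.703) were not called. For ETR1 the difference was called by edgeR (0.42, adjusted p = 0.0395) and by DESeq2 (0.39, adjusted p = 0.0403).

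Replicate 1 of tor with glucose stood apart: 0.490% of its RPM lay on chloroplast genome genes, against 3.10% and 3.71% in the other libraries of its group. It was the highest of its group for all receptors and the lowest for RTE1. Without it the difference in glucose effect was 1.07 for ERS2, 1.08 for RTE1, 0.64 for ERS1 and 0.68 for ETR2, each still called. Leaving out replicate 2 of Col-0 with glucose ended the call of ERS1 (limma adjusted p = 0.0515).

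Levels in the libraries labelled tor were above those in Col-0 for most members, in a comparison that shares its libraries with the preceding ones. Without glucose, 4 of 6 were higher, against 55.4% of all genes called and 40.3% called higher. ETR2 stood at 76.1 ± 10.7 RPM against 28.4 ± 3.42 (log2 difference 1.39 ± 0.14, limma adjusted p = 4.15e-06). ERS2 stood at 75.4 ± 13.2 against 29.3 ± 3.67 (1.32 ± 0.15, limma adjusted p = 1.4e-05). RTE1 stood at 25.9 ± 2.51 against 12.8 ± 0.921 (0.96 ± 0.11, limma adjusted p = 9.38e-06). ETR1 stood at 78.6 ± 8.06 against 53.4 ± 2.10 (0.55 ± 0.09, limma adjusted p = 0.00034), and for none of these genes did the groups overlap.

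ERS1 had overlapping groups without glucose, with a log2 difference of 0.10 ± 0.15 (limma adjusted p = 0.573). EIN4 at -0.17 ± 0.14 was not called (limma adjusted p = 0.33), but it was called lower in tor under median-of-ratios scaling (-0.44, limma adjusted p = 0.00178), by edgeR (adjusted p = 0.00144) and by DESeq2 (adjusted p = 0.000177). The median of all genes was 0.24 higher in tor on the RPM scale. Relative to that median the excess of ERS2, ETR2 and RTE1 remains large, while under median-of-ratios scaling ETR1 was 0.27 higher (limma adjusted p = 0.0255).

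With glucose, 5 of 6 members were higher in tor, against 61.4% of all genes called and 37.3% called higher, and the gaps were wider. ERS2 stood at 89.5 ± 17.1 RPM against 14.4 ± 0.876, a log2 difference of 2.54 ± 0.15 (limma adjusted p = 6.3e-08). ETR2 stood at 109.3 ± 18.0 against 23.1 ± 1.83, a log2 difference of 2.18 ± 0.14 (limma adjusted p = 8.5e-08). RTE1 stood at 25.7 ± 1.78 against 5.68 ± 0.217, a log2 difference of 2.00 ± 0.11 (limma adjusted p = 2.58e-08). These 3 genes had the largest gaps of the 6.

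ERS1 was 0.91 ± 0.15 higher in log2 (limma adjusted p = 0.000129) and ETR1 0.81 ± 0.09 higher (limma adjusted p = 1.01e-05). EIN4 alone was not called, at 35.2 ± 7.65 RPM in tor and 35.8 ± 2.82 in Col-0, overlapping groups with a log2 difference of -0.04 ± 0.14 (limma adjusted p = 0.837). The shoot markers moved with the genotype: 4 of 5 were lower in tor without glucose and 4 of 5 with glucose. Their summed level was 13424 to 16137 RPM in tor without glucose and 9639 to 19009 with it. Every Col-0 library of the glucose-TOR experiment was above these values, and no shoot marker was at 0. Among root markers, 3 of 5 were lower in tor with glucose and 1 was higher. Of 2 dry-seed markers tested, 1 was higher in tor without glucose and 0 with it, with median log2 differences of 2.51 and 1.70. The RPM of CRA1, a dry-seed marker, ranged from 1.46 to 86.7 in tor without glucose and from 0.476 to 1.94 in Col-0 without glucose. The part of these shifts in the receptor results was not tested.

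In the glucose-HXK1 experiment, the same glucose treatment gave 1 called member in each genotype on the RPM scale. RTE1 fell in Ler, where 28.7% of all genes were called and 11.3% were called lower. Its RPM was 17.7, 15.9 and 10.3 without glucose and 9.00, 9.73 and 7.14 with it, a log2 change of -0.68 ± 0.22 (limma adjusted p = 0.0219) that was not called in the fit to the 2 Ler groups alone (limma adjusted p = 0.144). ETR2 rose in gin2, where 27.5% of all genes were called and 18.7% were called higher. Its RPM was 30.3, 27.1 and 24.6 without glucose and 48.8, 46.2 and 50.7 with it, well-separated groups with a log2 change of 0.81 ± 0.23 (limma adjusted p = 0.00991); without replicate 3 of gin2 without glucose the change was 0.74 and the call was lost (limma adjusted p = 0.0534). Among markers, 2 of 4 root markers tested were higher with glucose in each genotype, TIP4;1 and COBL9 in Ler and TIP4;1 and EXPA7 in gin2. The shoot marker CP12-2, 1 of 5, was lower in both, and CRA1, 1 of 2 dry-seed markers tested, was higher in Ler. Their part in the receptor results was not tested.

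The spread among Ler libraries was wide, and replicate 3 was the lowest library of both Ler groups for all 6 members. ERS1 RPM, for example, was 150.6, 102.7 and 63.5 in Ler without glucose and 201.6, 203.7 and 198.7 in gin2 without glucose. When RPM was recomputed over the genes listed in all 12 libraries, 5 of 6 members were called in Ler, against 53% of all genes. ETR2 was 0.54 higher with glucose (limma adjusted p = 0.00292) and EIN4 0.41 higher (limma adjusted p = 0.048). ETR1 at -0.41, ERS2 at -0.41 and RTE1 at -0.63 were lower, and ERS1 at -0.35 was not called (limma adjusted p = 0.0541).

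On that scale 4 of 6 members were called in gin2, against 47.9% of all genes. ETR2 was 0.83 higher (limma adjusted p = 0.000113), and ETR1 at -0.41 (limma adjusted p = 0.00661), ERS2 at -0.57 (limma adjusted p = 0.00975) and RTE1 at -0.34 were lower. Under median-of-ratios scaling 5 of 6 were called in each genotype, against 50.7% of all genes in Ler and 46.4% in gin2, with ETR2 higher and ETR1, ERS1, ERS2 and RTE1 lower in both. Under every scaling that called them, ETR2 was higher with glucose and ETR1, ERS1, ERS2 and RTE1 were lower, in Ler and in gin2 alike. In Col-0 of the glucose-TOR experiment, the RPM of ETR2 was not raised by glucose; the accessions were not compared by a test.

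The difference between the glucose effects in gin2 and Ler passed the test for no member: limma called 0 of 6, against 0.294% of all genes, and 0 were below an unadjusted p of 0.05. No count-based tool was run on this comparison. The log2 differences ranged from -0.14 ± 0.39 for EIN4 to 0.34 ± 0.33 for ETR2, with errors about as large as the differences or larger. What size of difference could be detected was not worked out. In 18 alternatives no member was called, the smallest limma adjusted p being 0.523, for RTE1.

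On the RPM scale, members stood higher in gin2 than in Ler, as did most genes. Without glucose 5 of 6 were higher, against 51.5% of all genes called and 49.9% called higher, with a median of all genes at 0.55 in log2. With glucose 6 of 6 were higher, against 58.7% called and 57.1% called higher, with a median of 0.62. Under median-of-ratios scaling the count was 2 of 6 without glucose, against 32.3% of all genes: ERS1 was 0.39 higher in gin2 (limma adjusted p = 0.0454) and RTE1 was 0.31 lower, a difference of -0.31 (limma adjusted p = 0.037). With glucose it was 1 of 6, against 33.9% of all genes, ERS1 at 0.46 (limma adjusted p = 0.0205). Over the genes listed in all libraries 36.7% of all genes were called without glucose and 38.7% with it. ERS1 at 0.54 and 0.60 was among them, as was ETR1 in both cases. ETR2 was also called there with glucose, and further members were called without it. ERS1 was the member called higher in gin2 on all 3 scales, with and without glucose. Of 5 shoot markers, 1 was higher in gin2 without glucose, and 2 were higher and 1 lower with it. Of 4 root markers tested, 0 were called without glucose and 1 was lower with it. Both dry-seed markers that could be tested, CRA1 and OLEO1, were lower in gin2. The part of all these markers in the members' values was not tested.

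**Figure D3:**
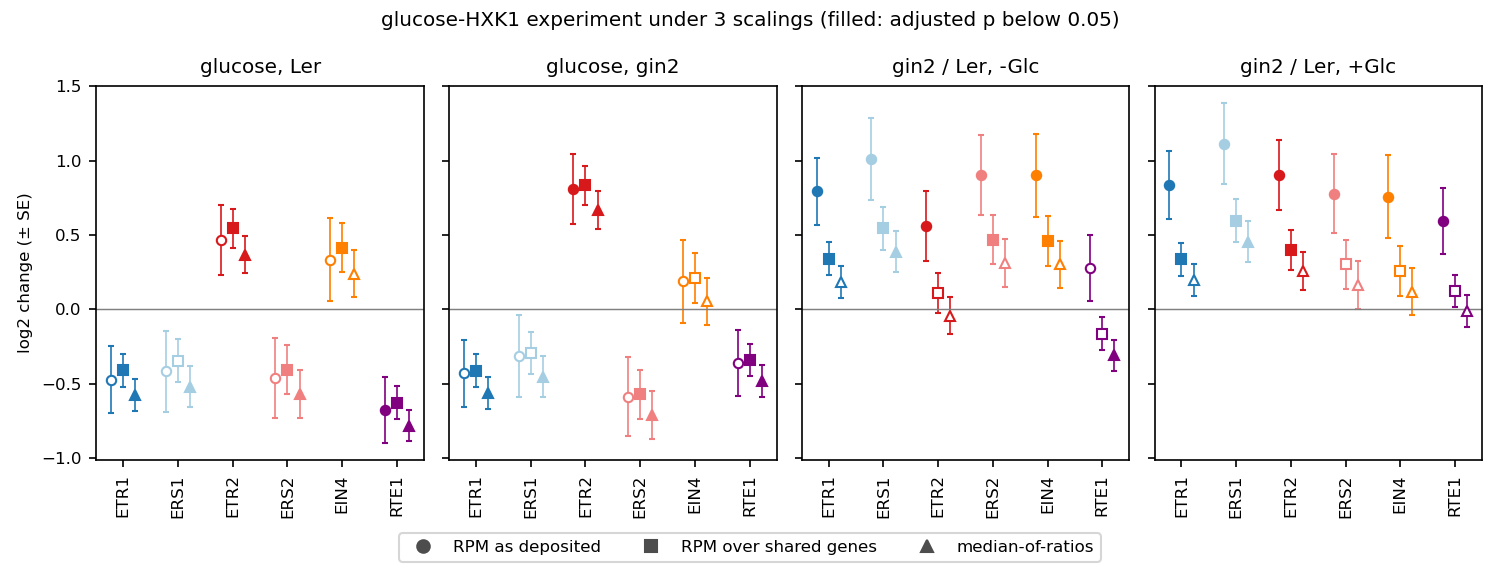
Log2 difference of each member in 4 comparisons of the glucose-HXK1 experiment under 3 scalings: RPM as deposited, RPM over the genes listed in all 12 libraries, and median-of-ratios. Filled points passed an adjusted p of 0.05; the glucose effects keep their signs across scalings, while the gin2 against Ler differences shrink, that of RTE1 without glucose going from 0.28 to -0.31.

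Ratios between genes within a library do not depend on the RPM total. RTE1 relative to ETR1, per kb, was 0.646 to 0.825 in the mock libraries at 2 h and 1.44 to 1.54 with ACC. In Col-0 it was 0.525 to 0.560 without glucose and 0.315 to 0.335 with it. In Ler without glucose it was 1.19 to 1.36, above the 0.828 to 0.901 of gin2. None of these pairs of groups overlapped, so there was more RTE1 transcript per ETR1 transcript with ACC, less with glucose in Col-0, and less in gin2 than in Ler without glucose. With glucose the ranges of Ler, 0.903 to 1.27, and gin2, 0.828 to 1.06, overlapped. In tor the ratio was 0.714 to 0.780 without glucose and 0.696 to 0.941 with it, overlapping ranges.

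ETR2 relative to ETR1, per kb, was 0.593 to 0.648 with mock at 2 h and 1.62 to 1.76 with ACC. With glucose it went from 0.509–0.687 to 1.02–1.34 in Ler and from 0.444–0.608 to 1.12–1.35 in gin2. In tor it went from 0.739–0.936 to 1.21–1.44, again without overlap. In Col-0 the ranges overlapped, 0.395 to 0.488 without glucose and 0.466 to 0.553 with it. Glucose was thus accompanied by a higher ETR2 to ETR1 ratio in 3 of the 4 genotypes. With 3 libraries against 3, an exact permutation test cannot go below a two-sided p of 0.10, so these ratios are given as descriptions.

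The summed level of the 5 receptors, per kb, went from a mean of 90.8 RPM per kb (range 89.7 to 92.3) with mock to 182.2 ± 2.98 with ACC at 2 h, and from 94.2 ± 7.09 to 177.2 ± 8.31 at 4 h. In Col-0 it went from 106.9 ± 11.4 without glucose to 75.7 ± 4.72 with it. In tor it was 151.6 ± 16.5 without and 176.9 ± 31.2 with glucose, ranges that overlapped. The receptor transcript pool was therefore larger with ACC and smaller with glucose in Col-0.

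Subfamily 2 took a larger share of that pool after each treatment. Its share was 25.1% ± 0.433 with mock and 30.7% ± 0.402 with ACC at 2 h, and 26.6% ± 0.564 and 31.5% ± 0.416 at 4 h. With glucose it went from 27.2% ± 0.110 to 31.0% ± 0.413 in Col-0 and from 39.8% ± 1.37 to 44.6% ± 2.75 in tor. In Ler it went from 24.1% ± 1.06 to 32.6% ± 1.44 and in gin2 from 22.2% ± 1.13 to 29.4% ± 0.723. The ranges did not overlap in any of these 6 comparisons.

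Different genes carried the shift. With ACC at 2 h, ETR2 went from 8.28% to 13.6% of the pool and ERS2 from 4.95% to 10.0%, while EIN4 went from 11.9% to 7.09% and ETR1 from 13.2% to 7.98%. With glucose in Col-0, EIN4 went from 8.39% to 14.2% and ERS2 from 10.6% to 7.35%. ERS1 was 61.7% with mock and 61.3% with ACC, so its share was nearly level while its amount rose. In tor without glucose ERS1 made up 41.4% ± 1.60 and ERS2 19.1% ± 1.39.

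**Figure D4:**
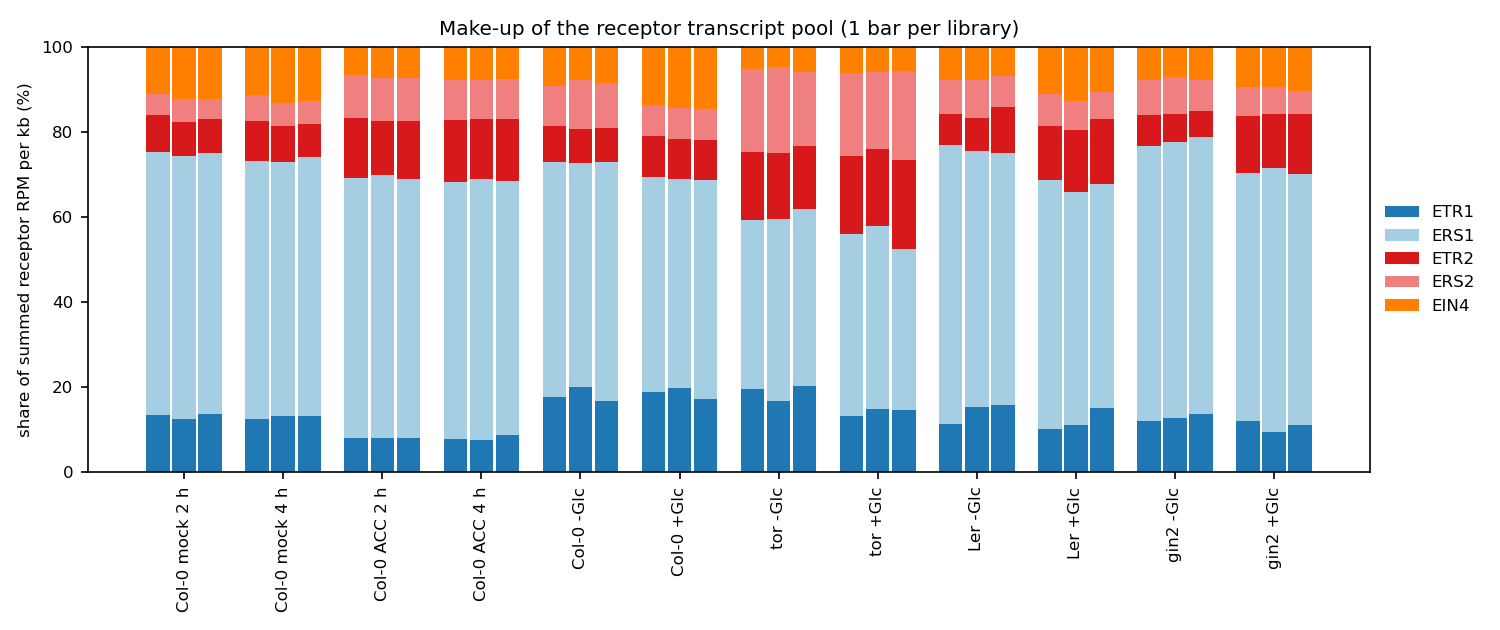
Share of each receptor in the summed receptor level (RPM per kb of exon, in percent), with 1 stacked bar for each of the 36 libraries. ERS1 is the widest band in every bar, and the 3 subfamily 2 bands together are widest in tor with glucose, at 42.1% to 47.6%.

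The genes that relay the signal below the receptors moved in some of the same comparisons. Of 9 such genes, 6 were higher with ACC at 2 h and 6 at 4 h, with 0 lower, against 5.47% and 10.5% of all genes called higher. The median change of the 9 at 2 h was 0.32 against 0.03 for all genes tested. CTR1, the kinase the receptors hold active, rose by 1.00 ± 0.09 (limma adjusted p = 7.93e-06). EBF2, an F-box protein that targets EIN3 for degradation, rose by 1.42 ± 0.12 (limma adjusted p = 6.49e-06) and its relative EBF1 by 0.68 ± 0.10 (limma adjusted p = 0.000706). The positive regulators EIN2 (0.61 ± 0.06), EIL1 (0.32 ± 0.05) and EIN3 (0.21 ± 0.06) rose less. XRN4, ETP1 and ETP2 were not called.

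With glucose in Col-0, 7 of the 9 were lower and 1 higher, with a median of -0.62 against 0.14 for all genes. There 56.3% of all genes were called and 20.6% were called lower. CTR1 fell by 1.03 and EBF2 by 1.23 on the log2 scale, and ETP2, an F-box protein that acts on EIN2, rose by 0.46. In tor, 1 was higher and 3 lower with glucose, where 34.7% of all genes were called. The difference between the glucose effects was called for 4 of 9, all more positive in tor, against 6.21% of all genes called higher. These were EBF2 at 1.43 ± 0.18, CTR1 at 0.89 ± 0.13, EIL1 at 0.73 ± 0.17 and EBF1 at 0.73 ± 0.14. Against Col-0, 7 of the 9 were higher in tor without glucose and 7 with it. Of all genes, 40.3% and 37.3% were called higher there. With glucose on the RPM scale, 1 of the 9 was lower in Ler and 0 were called in gin2, against 28.7% and 27.5% of all genes called.

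Among 11 genes for partners of the receptors or of RTE1, 3 were higher with ACC at 2 h and 0 lower, against 5.47% of all genes called higher. They were ARL (2.96 ± 0.11), ARGOS (2.75 ± 0.12) and OSR1 (1.76 ± 0.29), related genes whose products, in Arabidopsis, reduce ethylene sensitivity. RTH, the homologue of RTE1, did not pass the test, at 15.0 ± 0.801 RPM with ACC and 15.1 ± 0.461 with mock (log2 difference -0.01 ± 0.07, limma adjusted p = 0.977), whereas RTE1 rose. With glucose in Col-0, RTH fell by 0.72 and RAN1, the copper transporter that supplies the receptors' ethylene-binding metal, fell by 0.80 on the log2 scale. They were among 4 lower and 4 higher of the 11, against 56.3% of all genes called. RTH also fell in tor with glucose, by 0.35 (limma adjusted p = 0.0222), and its difference between genotypes was 0.37 ± 0.15 (limma adjusted p = 0.11). In tor against Col-0, 10 of the 11 were higher and 1 lower without glucose, and 7 were higher and 2 lower with it. Of all genes, 55.4% and 61.4% were called in these comparisons.

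Of the 6 other histidine kinase genes, 5 could be tested and 0 were called with ACC at 2 h or 4 h by limma, against 9.25% and 19.4% of all genes. In Col-0 with glucose, 2 were lower and 1 higher: AHK2 fell by 0.83 and AHK3 by 0.68, and AHK4, like them a cytokinin receptor, rose by 0.83 on the log2 scale. As 56.3% of all genes were called there, this count does not set these genes apart. Among the phosphotransfer proteins and ARR2, 2 of 6 were higher with ACC at 2 h, AHP1 by 0.85 ± 0.09 and AHP3 by 0.28 ± 0.07, against 5.47% of all genes called higher.

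The members' own profiles were compared by Pearson's r of log2(RPM + 1) over the 24 libraries of the ethylene and glucose-TOR experiments, each experiment centred on its mean. The libraries share treatments and controls, so r is a description, and 16986 genes were compared with each member. ERS2 and RTE1 were each other's closest gene, with r = 0.979, and r = 0.897 over the 12 glucose-HXK1 libraries, which did not enter the choice. ETR2 and ERS2 had r = 0.977 over the 24 libraries but 0.397 over the 12. The r over the 12 used RPM as deposited, on which most genes stood higher in gin2 than in Ler. Genes that share this shift gain r with each other, so r over the 12 is no separate check of likeness. EIN4 and ETR1, for example, had r = -0.16 over the 24 and 0.70 over the 12.

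The gene most like ETR1 was EFE, also known as ACO4, which encodes an ACC oxidase, the enzyme that makes ethylene from ACC, with r = 0.976 over the 24 and 0.949 over the 12 libraries. XDH1 (0.968) and TOPP3 (0.965) followed. For ETR2 the closest was AT5G18470, with r = 0.987 over the 24 libraries and 0.0157 over the 12, and PIF3, a phytochrome-interacting transcription factor, had r of 0.971 and 0.921. For ERS1 the closest were AT3G60520 (0.968), AT2G39980 (0.962) and AT1G26270 (0.957). After ERS2, RTE1 was closest to AT1G33790 (0.974) and AT2G28570 (0.973), and ERS2 after RTE1 and ETR2 to AT4G02715 (0.976). EIN4 had weaker neighbours, AT1G22200 (0.897), GONST3 (0.895) and AT3G23160 (0.881), and its r with the other members lay between -0.16 and 0.34 over the 24 libraries and between 0.50 and 0.86 over the 12.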

How the data were processed

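Messenger RNA of whole seedlings was sequenced in 36 libraries. The submitters' processing notes name TopHat, an aligner, and HTSeq, a counter, without versions. Genome build, strand setting and the handling of multi-mapping reads are not given in the sources used here. All 36 value columns of the 1 deposited table were used; the authors made them as RPM, reads per gene scaled to a library total of 1e+06. Ethylene and glucose-TOR columns reach that total over their listed genes and glucose-HXK1 columns do not. A further 17 rows carrying an accession suffix were not used in tests.

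A gene entered an experiment's fit if 3 or more of its libraries had 1 RPM or more: 19442 for ethylene, 19336 for glucose-TOR and 17352 for glucose-HXK1. Each experiment's 12 libraries were fitted together on log2(RPM + 1) in limma 3.58.1 (R 4.3.3, trend in the variance), and 14 comparisons were tested, two-sided, with Benjamini-Hochberg adjustment over all genes and a threshold of 0.05. A fold change on this scale understates the change of low genes. Levels per kb used the union of annotated exons in RefSeq TAIR10.1, and exon lengths of the authors' build may differ.

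In the ethylene, glucose-TOR and Ler columns 100% of values were whole multiples of 1 read within 0.02 reads. edgeR 4.0.16 and DESeq2 1.42.0 on those recovered reads served as alternatives and called 1803 and 1820 genes with ACC at 2 h, 11451 and 11390 with glucose in Col-0, and 7168 and 6851 with glucose in Ler. Values of the gin2 columns were whole too for the 17352 genes also listed for Ler, but not for all 18385 genes those columns list, and no count test was run with gin2. Other alternatives were median-of-ratios scaling, no filter, a pseudocount of 0.25 RPM, only the groups compared, a replicate block, each library left out in turn, RPM over nuclear genes, RPM over genes listed in all 12 libraries, and both Ler replicates 3 left out.

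The fits were tested on simulated data with changed genes of at least 5 RPM. An earlier run that also changed genes between 1 and 5 RPM missed the recovery threshold set for it, so recovery at those levels was not shown; every member was above 5 RPM in all libraries.

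The 6 members are always named, and the 3 genes with the highest r are named for each member. Listed pathway genes are counted for part of the comparisons, and only some of those called are named. Members and lists were chosen with earlier results of these data known. Same-numbered libraries of mock 4 h and mock 2 h deviated together (r = 0.595, 0.411 and 0.382 over genes). The main fit did not pair them. The replicate block, an alternative, covered all 12 libraries of an experiment, and 0 members were called between the mock groups with or without it. Library depth limits precision by counting error only, and reads are not independent molecules.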

Additional observations from a re-analysis of the deposited data

Results flagged for a closer look

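The effect of glucose differed between the libraries labelled tor and Col-0 for 4 members by the limma test of the difference itself, and each effect was more positive in tor. The log2 difference was 0.79 for ETR2, 0.81 for ERS1, 1.21 for ERS2 and 1.04 for RTE1. In Col-0, RTE1 went from 12.8 ± 0.921 to 5.68 ± 0.217 RPM with glucose (SD, n = 3), while in tor it was 25.9 ± 2.51 and 25.7 ± 1.78. ERS2 went from 29.3 ± 3.67 to 14.4 ± 0.876 RPM in Col-0 and was 75.4 ± 13.2 and 89.5 ± 17.1 in tor. TOR transcript was higher in the libraries labelled tor, and shoot marker levels were lower there; their part in these differences was not tested.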

How the results depend on the processing

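Of 84 results, a member in a comparison, 52 kept their side of the threshold in all 18 to 21 alternatives run for them, 37 of them also their sign throughout; of 42 called results 26 kept direction and call. Values not called before or after changed sign 36 times. Median-of-ratios scaling reversed 3, all gin2 against Ler: ETR2 at -0.043 and RTE1 at -0.31 without glucose, and RTE1 at -0.012 with it. The cause was not tested. The count of called members moved by over 1.5 times for 5 comparisons. Glucose in tor (1) became 3 with median-of-ratios scaling, 2 with the replicate block, 2 over nuclear genes, 2 by edgeR and 3 by DESeq2. Glucose in Ler (1) became 0 with only the groups compared, 5 with median-of-ratios, 5 over shared genes, 4 by edgeR, 4 by DESeq2 and 5 without both Ler replicates 3. Glucose in gin2 (1) became 5 with only the groups compared, 5 with median-of-ratios, 2 with the replicate block, 4 over shared genes and 4 without both Ler replicates 3. The 5 members higher in gin2 than Ler without glucose became 2 with median-of-ratios, and the 6 with glucose became 1, or 3 over shared genes.

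Leaving out 1 library at a time gave 5 to 6 called members for ACC at 2 h, 4 to 6 for ACC at 4 h, 0 to 2 for glucose in tor, 3 to 4 for the difference between tor and Col-0, 0 to 4 for Ler, 0 to 2 for gin2, and 2 to 5 and 3 to 6 for gin2 against Ler without and with glucose. It left 4 for glucose in Col-0, 4 and 5 for tor against Col-0, and 0 for the other differences. The replicate block changed no other call. The main fits took the numbers as pairs in no comparison, the mock groups included. Libraries numbered 3 still deviated together for glucose in Ler (r = 0.635 over genes) and for ACC against mock at 2 h (r = 0.406). For the other numbers of these comparisons r was 0.0136 to 0.167.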
